A study of Mus musculus with 16 samples.

Results

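The AF4/FMR2 family has 4 genes in the mouse, Aff1, Aff2, Aff3 and Aff4, and all 4 were measured on exon arrays of brain and spinal cord from embryos without Nova1 and Nova2 and from wild type embryos. Their probe sets were taken as those whose single gene symbol in the platform annotation is one of these 4 names. This gave 123 of the 625534 probe sets of the array: 36 for Aff1, 23 for Aff2, 31 for Aff3 and 33 for Aff4. Of these, 97 passed a floor on dim signals and 26 did not. The 123 probe sets cover 4 genes of the 14570 with a measured level. The genes were picked with earlier results of the knockout comparisons known, so the knockout values of the family below are descriptions. Where the count of members past a threshold between genotypes is given, it stands beside the share over all features and nothing is read from it.

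AF4/FMR2 proteins are large nuclear scaffolds that act on transcription by RNA polymerase II. Aff1 and Aff4 organise the super elongation complex, which brings the kinase P-TEFb (Cdk9 with a cyclin T) to polymerases paused near a promoter and releases them into elongation. Human AFF2, also called FMR2, is silenced by a repeat expansion in the FRAXE form of intellectual disability. Human AFF1, AFF3 and AFF4 are fusion partners of the histone methyltransferase KMT2A (MLL) in leukaemia, and AFF3 was first described as LAF4, a lymphoid nuclear protein. Nova1 and Nova2 bind RNA in neurons and set which alternative exons enter the mature transcript.

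The 4 groups were double knockout (dKO) spinal cord, wild type (WT) spinal cord, dKO brain and WT brain, each with 4 arrays and 1 array to a biological replicate. All embryos were CD1, an outbred mouse stock, at E18.5, and RNA came from the whole tissue. The dKO embryos lacked both Nova1 and Nova2, and no source used here says which of their exons the alleles remove. The question of the comparison is which transcripts and exons differ when Nova proteins are absent.

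The promoters of Aff4 and Aff2 are shown because they are the members whose RefSeq promoter window spans the outermost annotated start of the gene. Both genes were lower in spinal cord than in brain and their promoters differ in CG content. A link between CG content and the tissue difference was not tested. The bases are those before the outermost RefSeq start of each gene on assembly GRCm38.p6, on the plus strand, with CG dinucleotides in capitals.
Aff4, chr11:53350517-53350639: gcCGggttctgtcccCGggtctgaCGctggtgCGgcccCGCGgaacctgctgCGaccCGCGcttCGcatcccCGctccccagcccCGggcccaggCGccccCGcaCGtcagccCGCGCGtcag
Aff2, chrX:69360081-69360189: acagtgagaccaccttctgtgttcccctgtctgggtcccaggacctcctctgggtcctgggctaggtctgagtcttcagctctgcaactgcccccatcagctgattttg
The Aff4 stretch of 123 bases holds 18 CG and is 78.9% G or C, and the Aff2 stretch of 109 bases holds 0 CG and is 57.8% G or C. The RefSeq promoter table takes a start further inside each of these genes, so its 250-base windows run past the outermost start. In these windows Aff4 had 34 CG and Aff2 had 7, counts that 3.53% and 46.3% of all 32851 such windows reach. The Aff3 window had 41 CG, which 1.09% of windows reach, and the 2 windows of Aff1 had 35 and 20, which 2.97% and 17.9% reach. On the same assembly Aff1 spans chr5:103692362-103855322, Aff2 chrX:69360190-69872054, Aff3 chr1:38175393-38630178 and Aff4 chr11:53350640-53421830.

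The arrays carried the labelled genotypes. Nova1 averaged 6.38 in dKO cord, 11.69 in WT cord, 5.24 in dKO brain and 10.27 in WT brain on the log2 scale of the gene level, and Nova2 averaged 7.32, 8.46, 7.91 and 8.66 in the same order, with no overlap between genotypes in either tissue. Median intensity per array was 99.5 to 116.2 in cord and 72.3 to 82.9 in brain. Arrays of 1 tissue correlated at 0.9294 or more in cord and 0.9445 or more in brain across genes. The mean of 11 Hox genes that mark the spinal cord was 9.55 to 9.66 in dKO cord, 9.23 to 9.55 in WT cord, 6.58 to 6.87 in dKO brain and 5.87 to 6.70 in WT brain. A few arrays stood apart. Brain arrays number 3 had a mean of 9 measured telencephalon markers (of 12 listed) of 8.40 in the dKO and 7.53 in the WT, where the highest brain arrays reached 9.86 and 9.90 and all cord arrays lay between 7.20 and 7.53. In cord, 4 arrays, dKO numbers 2 and 4 and WT numbers 1 and 4, had a mean over 8 for 14 of 15 skeletal muscle markers, within ranges of 7.44 to 9.40 in dKO cord and 7.71 to 9.94 in WT cord, against 7.02 to 7.21 in brain. Glial markers were lower in dKO than in WT cord without overlap: astrocyte markers averaged 9.78 to 10.09 in dKO cord and 10.16 to 10.59 in WT cord (7 of 8 measured, 5 called lower), oligodendrocyte markers 8.16 to 8.30 and 8.47 to 8.80 (6 of 7, 3 called lower), and microglia markers 7.42 to 7.72 and 7.82 to 8.28 (7 of 7, 3 called lower). The 1 erythroid marker measured of 4 was 8.09 to 8.38 in dKO cord and 9.09 to 9.37 in WT cord. Their part in the cord values below was not tested. In whole tissue, fewer cells of a type and less RNA per cell cannot be told apart.

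A single Aff3 probe set, 5291502, had the one large knockout difference of the family. Its intensity on the 4 arrays of dKO cord was 143.2, 185.5, 168.1 and 176.5, against 1677.5, 1247.5, 1187.4 and 1454.9 in WT cord. In dKO brain it was 96.6, 88.4, 42.4 and 85.8, against 1213.7, 1260.6, 1157.0 and 1531.6 in WT brain. All dKO arrays were dim and all WT arrays bright, with a wide gap in both tissues. On the log2(intensity + 16) scale the means were 7.52 ± 0.147 in dKO cord and 10.45 ± 0.224 in WT cord, a difference of -2.93, or 7.60-fold lower in the dKO (SD, n = 4 each). In brain they were 6.51 ± 0.436 in the dKO and 10.34 ± 0.175 in the WT (SD, n = 4 each), and since 3 of the 4 dKO arrays lay at or below the floor of 6.73 the dKO signal was at least 12.1-fold lower.

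**Figure D1:**
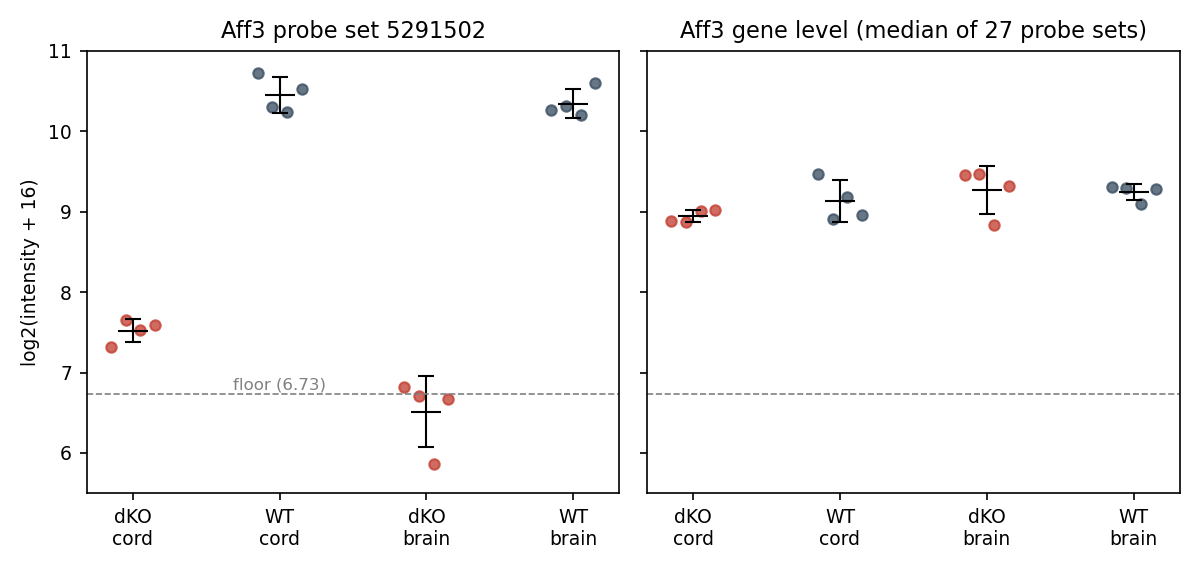
Signal of Aff3 probe set 5291502 (left) and the Aff3 gene level (right) on every array, as log2(intensity + 16), with points for arrays, long bars for means and whiskers for 1 SD over 4 arrays. The dashed line is the floor of 6.73. The probe set lies between 5.87 and 7.65 in the dKO groups and between 10.20 and 10.73 in the WT groups, while the gene levels of the 4 groups overlap.

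The rest of Aff3 did not share this difference. The gene level, the median over the 27 Aff3 probe sets above the floor, was 8.89, 8.87, 9.01 and 9.01 in dKO cord and 9.47, 8.90, 9.18 and 8.95 in WT cord. It was 9.45, 9.46, 8.83 and 9.32 in dKO brain and 9.30, 9.30, 9.09 and 9.29 in WT brain. The genotypes overlapped in both tissues, and the differences were -0.18 in cord and 0.02 in brain. Over the other 26 Aff3 probe sets the level difference between dKO and WT ranged from -0.35 to 0.45 in cord, with a median of -0.15, and from -0.18 to 0.48 in brain, with a median of 0.04.

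The exon index sets each probe set against its own gene on the same array, as its log2 value minus the gene level. For 5291502 it averaged -1.43 ± 0.152 in dKO cord and 1.32 ± 0.220 in WT cord, and -2.75 ± 0.154 in dKO brain and 1.10 ± 0.152 in WT brain (SD, n = 4 each). The probe set was thus brighter than the median Aff3 probe set in WT tissue and dimmer than it in dKO tissue. The index differed by -2.74 in cord (SE 0.122) and by -3.85 in brain (SE 0.122). Among 193126 probe sets with an index this was the second lowest difference in each tissue, after a probe set of Scfd1 in brain and one of Gtf2a1 in cord. By absolute size it ranked 2 in brain and 10 in cord. Since the genes were picked with the knockout results known, nothing is read from these ranks. The difference between the tissues, cord minus brain, was 1.11 (SE 0.173), with dim dKO brain arrays on one side of it, and it was 0.47 after quantile normalization.

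The dKO cord signal of 5291502 did not reach the dKO brain range. Its index lay between -1.57 and -1.22 in dKO cord and between -2.97 and -2.63 in dKO brain, a mean difference of 1.33. This ranged from 0.80 to 1.48 over 20 alternative settings, and 3 of the dKO brain arrays lay at or below the floor. In WT tissue it lay between 1.05 and 1.57 in cord and between 0.96 and 1.31 in brain, where the difference of 0.22 did not pass limma's test (adjusted p = 0.216). The lowest dKO brain signal, 42.4, was on array number 3, which also had the low telencephalon score, and the part of tissue makeup in it was not tested.

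Across the family, 1 of 97 probe sets above the floor was called by exon index in each tissue, lower in the dKO, and it was 5291502 both times. Over all probe sets with an index, 0.388% were called in cord and 0.15% in brain, while 0.153% and 0.0818% were called lower. The index did not overlap between genotypes for 5 of 97 in cord, where 5.69% of all probe sets did so, and for 5 of 97 in brain, against 2.63%. The probe set level did not overlap for 6 in cord (9.96% of all) and for 7 in brain (3.8% of all). Since the genes were picked on this contrast, nothing is read from these counts.

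**Figure D2:**
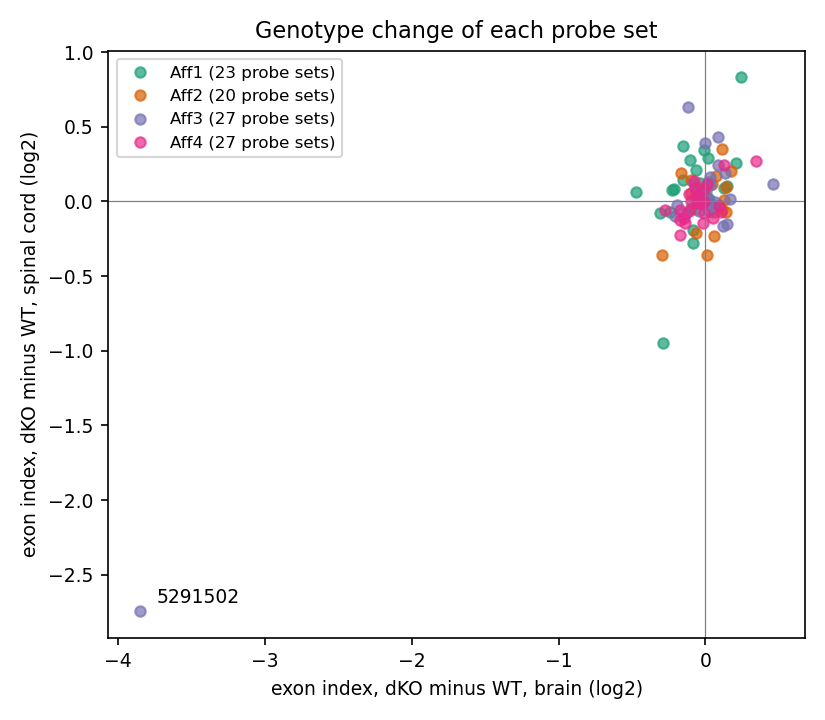
Difference in exon index, dKO minus WT, of the 97 AF4/FMR2 probe sets above the floor, in spinal cord (vertical, log2) and brain (horizontal, log2), coloured by gene. Probe set 5291502 of Aff3 sits at -3.85 in brain and -2.74 in cord, and the other 96 lie between -0.47 and 0.46 in brain and between -0.95 and 0.83 in cord.

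The next differences in exon index were small or rested on dim or single arrays. Aff1 probe set 5442974 differed by -0.95 in cord, with log2 signals of 6.86, 5.40, 6.32 and 6.77 in dKO cord and 7.20, 7.02, 8.33 and 7.04 in WT cord. Its values lay near the floor, and its index did not overlap between the genotypes. Aff1 probe set 4991941 differed by 0.83 in cord, with 7.10, 7.40, 6.62 and 7.92 in dKO cord and 5.91, 5.94, 6.33 and 7.97 in WT cord. Its WT array number 4 lay apart from the other 3, and without that array the difference was 1.35. Aff3 probe set 4935089 differed by 0.63 in cord through 1 WT array, number 1, at 5.93, while the other 3 WT arrays were between 8.70 and 9.14 and the dKO arrays between 8.30 and 9.01.

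Aff3 probe set 5535570 had a small difference with a narrow spread. Its exon index in cord was 0.40, 0.44, 0.48 and 0.31 in the dKO and 0.02, -0.08, 0.10 and 0.03 in the WT, a difference of 0.39 with no overlap. In brain it was 0.06, 0.11, -0.21 and 0.13 in the dKO and 0.00, -0.03, 0.00 and 0.14 in the WT, and the groups overlapped. Setting 5291502 aside, the largest brain difference within each gene was -0.47 for Aff1 probe set 4855178, 0.46 for Aff3 probe set 4419263, 0.34 for Aff4 probe set 4939695 and -0.29 for Aff2 probe set 4905480. That Aff2 probe set also differed by -0.36 in cord. The 26 dim probe sets, which have no index, differed in level by -0.49 to 0.63 in cord and by -0.49 to 0.39 in brain.

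At the gene level the dKO and WT arrays of the family overlapped. Aff1, whose robotic mutant mouse has ataxia, was 7.62, 7.80, 7.64 and 7.92 in dKO cord and 7.88, 7.74, 8.09 and 7.72 in WT cord, and 7.55, 7.59, 7.66 and 7.63 in dKO brain and 7.37, 7.49, 7.64 and 7.58 in WT brain. Aff2 was 8.57, 8.41, 8.60 and 8.44 in dKO cord and 8.88, 8.31, 8.70 and 8.64 in WT cord, and 9.26, 9.39, 9.03 and 9.34 in dKO brain and 9.07, 9.33, 9.23 and 9.28 in WT brain. Aff4 was 9.80, 9.89, 9.96 and 10.05 in dKO cord and 10.08, 9.63, 9.90 and 9.76 in WT cord, and 10.56, 10.54, 10.42 and 10.56 in dKO brain and 10.35, 10.43, 10.37 and 10.38 in WT brain. The dKO and WT arrays overlapped for each gene in each tissue, where 11.5% of all genes in cord and 4% in brain had no overlap. The dKO minus WT differences were -0.11 for Aff1, -0.13 for Aff2 and 0.09 for Aff4 in cord, beside -0.03 for the median of 14570 genes. In brain they were 0.09, 0.03 and 0.13, beside 0.02 for all genes. By limma 0 of 4 genes were called in cord (5.63% of all genes) and 0 of 4 in brain (0.268% of all genes), and 0 of 4 had an unadjusted p under 0.05 in either, where 19.5% of all genes did in cord and 5.33% in brain. In brain, equal replicate numbers were taken to pair the arrays, from their correlations and not from the sample titles. Within these pairs dKO minus WT was 0.21, 0.11, 0.04 and 0.17 for Aff4 and 0.18, 0.10, 0.02 and 0.06 for Aff1. All 4 pairs were above 0 for these 2 genes, as for 11.4% of all genes, and 3 of 4 pairs were for Aff2 and Aff3. The difference of the 2 changes called 0 of 4 genes (0% of all genes) and 0 of 97 probe sets by exon index (0.000518% of all), with 0 genes and 6 probe sets at an unadjusted p under 0.05 (8.0% of all genes and 5.67% of all probe sets).

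**Figure D3:**
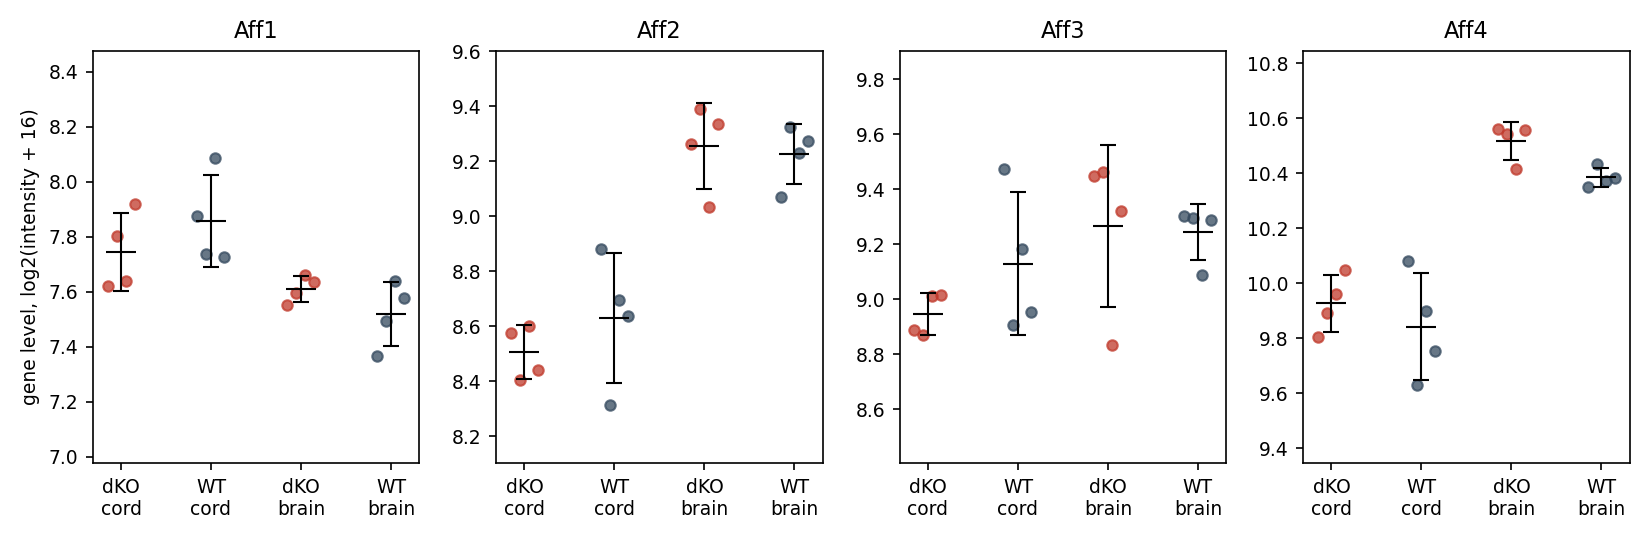
Gene level of Aff1, Aff2, Aff3 and Aff4 on every array, as log2(intensity + 16), with points for arrays, long bars for means and whiskers for 1 SD over 4 arrays. Each panel has its own axis range, and all span the same number of log2 units. Aff2 and Aff4 lie lower in cord than in brain in both genotypes, and the dKO and WT arrays of each tissue overlap in every panel.

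Between the tissues limma called 3 members in each genotype, and these comparisons are tested. The called members were Aff1, Aff2 and Aff4 in the WT and Aff2, Aff3 and Aff4 in the dKO. Only Aff2 and Aff4 were called in both, and the calls of Aff1 and Aff3 depended on the processing. The tissue comparisons use the same arrays as the genotype comparisons. The dKO and WT tissue differences share no array with each other. Their tests do share an error estimate for each gene, taken from a joint fit over the arrays of all groups. The p-values of the dKO and the WT are therefore not independent of each other. Aff2, the mouse counterpart of FMR2, averaged 8.63 ± 0.236 in WT cord and 9.23 ± 0.110 in WT brain (SD, n = 4 each), with no overlap. The difference of -0.59 (SE 0.115), 1.51-fold lower in cord, passed limma's test (adjusted p = 0.00029). In the dKO the means were 8.51 ± 0.0969 in cord and 9.26 ± 0.158 in brain, a difference of -0.75 (SE 0.115), 1.68-fold lower (adjusted p = 3.1e-05). Aff2 lies on the X chromosome. The sample titles give no sex, which was inferred from 12 Xist and 54 Y chromosome probe sets of these arrays. By these the groups held 3 female and 1 male embryos in dKO cord and 2 and 2 in WT cord. They held 4 and 0 in dKO brain and 2 and 2 in WT brain, so sex was not balanced between the genotypes. With a term for sex the differences were -0.71 in the dKO and -0.59 in the WT.

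Aff4, a core scaffold of the super elongation complex, was also lower in cord. It averaged 9.84 ± 0.193 in WT cord and 10.39 ± 0.0355 in WT brain, a difference of -0.54 (SE 0.0976), 1.46-fold lower (adjusted p = 0.000155). In the dKO it averaged 9.93 ± 0.104 in cord and 10.52 ± 0.0693 in brain, a difference of -0.59 (SE 0.0976), 1.51-fold lower (adjusted p = 5.9e-05). The cord and brain arrays did not overlap in either genotype. Aff2 and Aff4 passed the test in both genotypes under each of 20 alternative settings, with differences between -0.82 and -0.45 for Aff2 and between -0.66 and -0.31 for Aff4.

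Aff1 went the other way in WT tissue. It averaged 7.86 ± 0.168 in WT cord and 7.52 ± 0.118 in WT brain, a difference of 0.34 (SE 0.102, adjusted p = 0.00821), with no overlap. In the dKO it averaged 7.75 ± 0.142 in cord and 7.61 ± 0.0484 in brain, and the difference of 0.14 did not pass (adjusted p = 0.244). This call depended on the processing: the WT difference was 0.12 without a floor (adjusted p = 0.364) and 0.11 after quantile normalization (adjusted p = 0.309), and the dKO difference was -0.11 after quantile normalization. The dKO difference was called with the floor at the 75th percentile, at 0.47 (adjusted p = 0.000251), and with the mean over probe sets as gene level, at 0.23 (adjusted p = 0.00801). The difference between the genotypes was itself not called (adjusted p = 0.776).

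Aff3 showed no firm tissue difference in level. It averaged 9.13 ± 0.260 in WT cord and 9.24 ± 0.103 in WT brain, a difference of -0.12 (SE 0.136, adjusted p = 0.475), and 0.01 after quantile normalization. In the dKO it averaged 8.95 ± 0.0770 in cord and 9.27 ± 0.295 in brain, a difference of -0.32 (SE 0.136, adjusted p = 0.0452) with overlapping arrays. That call ended in 13 of 20 alternatives, at adjusted p up to 0.202. A replicate block was among them (adjusted p = 0.0578), though replicate numbers were not found to pair arrays between the tissues. Without both brain arrays number 3 it was -0.46 (adjusted p = 0.00245).

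In both genotypes limma called 3 of 4 members, where 66.4% of all 14570 genes were called in the dKO and 60.4% in the WT. The arrays did not overlap for 2 of 4 members in the dKO, where 63.2% of all genes had no overlap, and for 3 of 4 in the WT, against 40.9%. The median difference over all genes was -0.24 in the dKO and -0.16 in the WT. Of all genes 18.6% were called higher and 47.8% lower in dKO cord, and 20.6% higher and 39.8% lower in WT cord. Pan-neuronal markers, all 8 measured, also lay lower in cord, with a median of -0.44 and 7 called lower in the dKO and a median of -0.49 and 6 called lower in the WT. Of 7 astrocyte markers 1 was called higher and 1 lower in dKO cord, with a median of 0.19, and 5 were called higher and 0 lower in WT cord, with a median of 0.66. The part of these cell types in the differences of Aff1, Aff2 and Aff4 was not tested. By limma's calls the share of the family that differed between the tissues was close to that of genes in general. By arrays that did not overlap it was lower than that of all genes in the dKO and higher in the WT. With 4 genes, nothing is read from these shares. Leaving out the 4 cord arrays with high muscle scores gave differences of 0.02, -0.67, -0.32 and -0.64 in the dKO and 0.39, -0.72, -0.20 and -0.62 in the WT for Aff1, Aff2, Aff3 and Aff4 in that order. Leaving out both brain arrays number 3 gave 0.15, -0.82, -0.46 and -0.63 in the dKO and 0.38, -0.59, -0.17 and -0.55 in the WT.

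Single probe sets of Aff2 and Aff4 ran the same way as the gene levels. The mean level was below that of brain in 19 of 20 Aff2 probe sets in each genotype, with a median difference of -0.70 in the dKO and -0.50 in the WT. It was below in 26 of 27 Aff4 probe sets in each genotype, with medians of -0.52 in the dKO and -0.53 in the WT. Over all 193126 probe sets 66.6% were below in the dKO and 62.5% in the WT. Of the 23 Aff1 probe sets 15 were above brain in the dKO and 19 in the WT, where 33.4% and 37.5% of all probe sets were, and the Aff3 probe sets were split, with 12 of 27 above in the dKO and 13 of 27 in the WT. Probe sets of 1 gene are not independent of each other. The gene level is the median of these same probe sets, so they are not separate evidence for its difference.

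**Figure D4:**
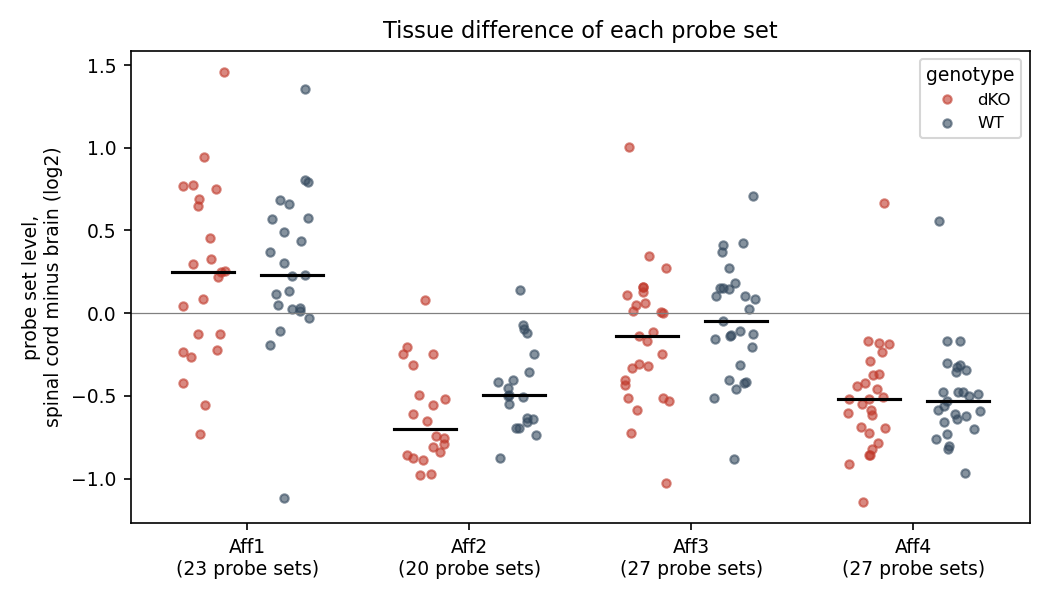
Difference in probe set level, spinal cord minus brain (log2), for every AF4/FMR2 probe set above the floor, with dKO left of WT for each gene and bars at the medians. Most Aff2 and Aff4 points lie below 0 in both genotypes, Aff1 points lie mostly above 0, and Aff3 points lie on both sides.

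Within the genes, single probe sets differed between the tissues relative to the rest of their gene. By exon index 30 of 97 members were called in the dKO, 22 higher and 8 lower in cord, and 18 of 97 in the WT, 10 higher and 8 lower. Over all probe sets 25.9% were called in the dKO and 22% in the WT, so the members' shares of 30.9% and 18.6% were near the background. Of all probe sets 15.1% were called higher and 10.8% lower in the dKO, and 12.4% higher and 9.59% lower in the WT. The index did not overlap between the tissues for 38 members in the dKO (31% of all probe sets) and 16 in the WT (20.4% of all). The 30 called include 5291502, which was chosen on these arrays. By gene, 10 Aff1, 4 Aff2, 10 Aff3 and 6 Aff4 probe sets were called in the dKO, and 4, 2, 9 and 3 in the WT. Of the called probe sets 13 were shared, all in the same direction, which is 43.3% of the dKO calls and 72.2% of the WT calls.

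Of the 18 WT calls 3 were measured and passed under each of 20 alternatives, 7 were too dim to be measured under some of them, and each of the 3 also passed under all of them in the dKO. Aff3 probe set 4505686 was lower in cord, with log2 signals of 8.39, 8.83, 8.57 and 8.68 in dKO cord and 9.72, 9.80, 9.32 and 9.76 in dKO brain. In the WT it was 8.81, 8.68, 8.63 and 8.33 in cord and 9.67, 9.65, 8.96 and 9.69 in brain. No cord array reached a brain array of its genotype. The index differed by -0.71 in the dKO (adjusted p = 0.00143) and by -0.77 in the WT (adjusted p = 0.00115). On brain arrays number 3 the signal was the lowest of the brain group in both genotypes, beside the low telencephalon score of these arrays, and the part of tissue makeup in it was not tested.

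Aff4 probe set 4617698 was also lower in cord relative to its gene. Its log2 signal was 9.29, 9.34, 9.46 and 9.64 in dKO cord and 10.57, 10.73, 10.49 and 10.51 in dKO brain, and 9.51, 9.30, 9.28 and 9.42 in WT cord and 10.40, 10.46, 10.23 and 10.28 in WT brain. The signal did not overlap between the tissues in either genotype, and the index differed by -0.55 in the dKO (adjusted p = 0.000464) and -0.42 in the WT (adjusted p = 0.00381).

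Aff2 probe set 4314051 behaved differently from the rest of Aff2. Its log2 signal was 10.28, 10.38, 10.42 and 10.47 in dKO cord and 10.26, 10.25, 10.27 and 10.45 in dKO brain, and 10.14, 10.47, 10.33 and 10.42 in WT cord and 10.24, 10.02, 10.42 and 10.12 in WT brain. Its own signal overlapped between the tissues while the gene level was lower in cord, so the index was higher in cord, by 0.83 in the dKO (adjusted p = 0.00189) and 0.73 in the WT (adjusted p = 0.00552).

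Aff4 probe set 5197900 was higher in cord relative to its gene. Its log2 signal was 8.34, 8.27, 8.77 and 8.38 in dKO cord and 7.62, 7.89, 7.98 and 7.62 in dKO brain, and 8.70, 8.28, 8.0 and 8.25 in WT cord and 7.03, 8.01, 8.21 and 7.74 in WT brain. The signal did not overlap between the tissues in the dKO and did in the WT. The index differed by 1.26 in the dKO (adjusted p = 0.00052) and by 1.10 in the WT (adjusted p = 0.00185), and the probe set was too dim to be measured with the floor at the 75th percentile. In Aff1, probe set 5016188 was higher in cord by 1.32 in index in the dKO (adjusted p = 0.0041) and 1.02 in the WT (adjusted p = 0.0215). Aff1 probe set 4856020 was lower in cord, with differences of -0.37 in the dKO (adjusted p = 0.0452) and -0.53 in the WT (adjusted p = 0.00921). The dKO call of 4856020 ended in 11 of 19 alternatives (adjusted p up to 0.225) and its WT call without a floor (adjusted p = 0.0801), and the WT call of 5016188 ended in 6 of 19 (adjusted p up to 0.163), among them leaving out WT brain array 1 or 2 or WT cord array 4.

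The partners of the family were examined as 4 lists. None of the 50 partner genes measured, from the super elongation complex and P-TEFb, pausing and elongation factors, DOT1L and MLL complexes and fragile X genes, was called by limma between dKO and WT in either tissue. At an unadjusted p under 0.05 there were 2, 2, 4 and 1 such genes in cord and 0, 1, 1 and 0 in brain, beside 19.5% and 5.33% of all genes. Between the tissues the called partners were mostly lower in cord, as called genes were in general, with 47.8% of all genes called lower and 18.6% higher in the dKO and 39.8% lower and 20.6% higher in the WT. In the super elongation complex and P-TEFb list 0 of 16 genes were higher and 8 lower in the dKO, with a median of -0.34, and 1 was higher and 9 lower in the WT, with a median of -0.39. Examples in the WT are Siah1a, a ubiquitin ligase that acts on family members, at -1.0 (adjusted p = 4.1e-05), Mepce, which caps the 7SK RNA that holds P-TEFb inactive, at -0.69, and the kinase Cdk9 itself at -0.63 (adjusted p = 0.00408). The 1 higher gene was Eaf2, a partner of the ELL elongation factors, at 0.46 (adjusted p = 0.0112).

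Of 19 pausing and elongation factors 14 were lower in dKO cord and 10 in WT cord, and 0 were higher in either. Rtf1 differed by -0.90 in the dKO and -0.79 in the WT, and Ctr9 by -0.60 and -0.67, both components of the PAF1 complex that travels with the polymerase. The elongation factor Tcea1 (TFIIS) differed by -0.76 in the dKO and -0.81 in the WT. In the DOT1L and MLL list 7 of 10 were lower and 0 higher in the dKO, and 5 were lower and 1 higher in the WT, the higher one being the methyltransferase Dot1l at 0.32 (adjusted p = 0.00489). Among 5 fragile X genes 3 were lower in dKO cord, and in WT cord 2 were lower, Fmr1 at -0.62 and its relative Fxr2 at -0.51, and Cyfip2 was higher at 0.29 (adjusted p = 0.0223). All genes had medians of -0.24 in the dKO and -0.16 in the WT, and list medians lay at -0.40, -0.44 and -0.41 in the dKO and -0.29, -0.29 and -0.18 in the WT for these 3 lists. Brighter genes lay lower in cord in general: with the floor at the 75th percentile the medians over all genes were -0.38 in the dKO and -0.30 in the WT. The lists were not set against genes of like signal.

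As a description, since the arrays span both tissues, genes were ranked by the Pearson correlation of their level with each member over the 16 arrays. The closest genes are named, with predicted clone genes skipped. For Aff2 they were Gspt1 (0.979), Zfp334 (0.976) and Mark1 (0.964), and for Aff4 Slc22a6 (0.977), Insr (0.976) and Mgea5 (0.975). For Aff1 they were Centb1 (0.903), Rtl1 (0.894) and Creb3l1 (0.888), and for Aff3 Fam83d (0.884), Thap4 (0.882) and Asxl1 (0.879).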

How the data were processed

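Total RNA of 16 mouse tissue samples was hybridised to Affymetrix exon arrays. The authors deposited 1 linear intensity per probe set and array. Per the submitters' processing notes they used PLIER in Affymetrix Power Tools, with mm8 as the build. No source used here states versions or PLIER settings, and no further scaling was applied to the deposited values. Groups and replicate numbers came from the sample titles. The platform annotation gives 303629 probe sets 1 gene symbol and 5892 several, and 316013 are unnamed here. Positions of probe sets in their genes were not used here, so no probe set is given as a named exon.

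Values were taken as log2(intensity + 16), and so a log2 difference understates that of dim probe sets. The floor was the median of all probe sets' mean log2 values, 6.73. A gene level was the median over at least 3 named probe sets above the floor (14570 genes), and an exon index was a probe set's log2 value minus its gene's level, array by array, where the gene had 5 or more such probe sets (193126 probe sets). Group means over all 16 arrays were fitted in limma (version 3.58.1, under R 4.3.3, files read with data.table, version 1.17.8), with its two-sided moderated test and Benjamini-Hochberg adjustment at 0.05 over all features of a comparison. Only the limma fit was tested on simulated data, for gene levels and exon indices with known changes between dKO and WT brain. The number of arrays limits the precision. The p-values set a difference against the spread between these arrays, which includes the arrays that stood apart in telencephalon or muscle markers. The main fit took no account of pairing in brain. Fold bounds set each dim array at the floor.

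The members and lists were chosen with earlier results of these data known. Named probe sets were those called in any comparison or with the largest rise or fall of their gene. The text gives those that matter most. Partner genes were up to 4 per list and comparison by adjusted p, and not all that met this rule are named. Cdk9 met it by its dKO tissue difference, while its WT value is printed. Eaf2 and Dot1l were named after their values were seen. Partner genes without a level here were not analysed. Promoter windows were the 250 bases before RefSeq starts in the RefSeq table of GRCm38.p6, another build than the arrays' mm8.

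Equal replicate numbers were checked for pairing by the correlation of deviations from group means across genes. It was 0.212 to 0.407 between genotypes in brain, where each array correlated best with its own number, -0.12 to -0.003 between genotypes in cord, -0.152 to -0.041 between tissues in the WT and -0.021 to 0.044 in the dKO, so the numbers were taken to pair arrays in brain only. Alternatives were other offsets, floors, scalings, a mean gene level, fits on the compared groups, a replicate block, a sex term, and leaving out arrays.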

Additional observations from a re-analysis of the deposited data

Results flagged for a closer look

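Of 24 groups of 4 arrays checked, 3 had 1 array far from the other 3, a gap that chance gives in about 1 in 20 groups. All were brain arrays number 3. The Aff3 gene level was 9.09 on WT brain array number 3, with the nearest of the others at 9.29. The Aff4 gene level was 10.42 on dKO brain array number 3, with the nearest of the others at 10.54. The signal of Aff3 probe set 5291502 was 5.87 on dKO brain array number 3, with the nearest at 6.67. The mean of the telencephalon markers on these arrays was 8.40 in the dKO and 7.53 in the WT, and its part in these values was not tested.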

How the results depend on the processing

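The exon index difference of Aff3 probe set 5291502 between dKO and WT stayed between -3.03 and -2.47 in cord and between -4.11 and -3.28 in brain over 19 alternatives each, and its difference between the tissues between 0.47 and 1.26 over 27. The tissue differences of Aff2 and Aff4 kept direction and call under each of 20 alternatives in each genotype. After quantile normalization the direction turned for Aff1 in dKO tissue (-0.11) and Aff3 in WT tissue (0.0137), and 2 members instead of 1 were called by exon index between dKO and WT cord, the second being Aff3 probe set 5535570. Leaving out single arrays gave 1 to 2 such members, with the second, Aff1 probe set 4991941, called without WT cord array number 4. Aff1 in dKO tissue became called with the floor at the 75th percentile (0.47) and with a mean gene level (0.23). The count of members called by exon index between WT cord and WT brain, 18, was 29 without a floor and 8 with the arrays of these 2 groups alone, and 12 to 22 without single arrays. In the dKO the count of 30 was 17 with the floor at the 75th percentile, where fewer probe sets were measured, 19 without the 4 cord arrays of high muscle score, and 21 to 28 without single arrays. At the gene level 3 members were called in each fit without single arrays in the WT, and 2 to 3 in the dKO. Under the replicate block Aff3 lost its dKO tissue call (adjusted p = 0.0578), and no other gene-level call of a member changed. For the tissue comparisons this block pairs equal numbers, which the check of pairing did not bear out. Over all genes the calls between dKO and WT were 100 to 1618 in cord, where 820 is the count used, and 24 to 67 in brain, where 39 is; by exon index they were 111 to 1728 (750) and 187 to 318 (290). The lowest counts in cord came without the 4 cord arrays of high muscle score, and the highest after quantile normalization. Without those 4 arrays only WT cord numbers 2 and 3 and dKO cord numbers 1 and 3 remain. Fewer arrays alone can lower the counts. The causes of these shifts were not tested.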
